A study of Mus musculus with 20 samples.

Results

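Cxcl9, Cxcl10, Cxcl11, Cxcl16, Ccl5, Cx3cl1 and the receptor gene Cxcr3 make up a group of 7 genes for chemokines that act on T cells and natural killer (NK) cells, and for one of their receptors. They were found on the array by gene name, which gave 10 of its 41174 probes. Their RNA was measured in the lungs of 20 female C57BL/6BomTac mice, time-mated dams that had all been instilled through the trachea 4 times in gestation (day 7, day 10, day 15 and day 18). The 4 groups had 5 dams each. Control dams received the vehicle, Milli Q water, and the dose groups received the carbon black Printex 90, a soot-like nanoparticle, with 2.75 µg per instillation in the low-dose group (11 µg in all), 13.5 µg in the medium-dose group (54 µg in all) and 67 µg in the high-dose group (268 µg in all). All dams, controls included, were young adults that had borne no litter before, and were killed after weaning, 26 to 27 days after the exposure, so the values describe a late time and no earlier one. RNA of lung tissue, a mixture of cell types, was used, and each sample was labelled with Cy5 and hybridised to its own array against a universal mouse reference RNA in Cy3. A level is therefore the log2 ratio of lung over reference, as the authors deposited it, where 0 means equal signal in both dyes and 1 unit is a doubling.

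Chemokines are small secreted proteins that guide leukocytes along a gradient towards their source. Cxcl9, Cxcl10 and Cxcl11 all bind CXCR3, a receptor of activated T helper 1 cells, cytotoxic T cells and NK cells, and interferon gamma from those same cells induces the ligands in macrophages, endothelium and epithelium. Cxcl16 and Cx3cl1 are made as membrane-anchored molecules that metalloproteases can shed, and they bind CXCR6 and CX3CR1. Ccl5 binds receptors that include CCR1 and CCR3 and is itself made in quantity by cytotoxic T cells and NK cells.

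The arrays held 45018 features. Between 64.0% and 78.3% of features had a lung signal well above background, and the correlation of the values between any 2 arrays was 0.9455 to 0.985 across features. On slides 1 to 5 every group kept one position, so position and group cannot be told apart, and slide 6 held only medium-dose dams 49 and 50. Lung epithelial genes were high against the reference, with Sftpc, for a surfactant protein, at 4.68 in high-dose dams and 4.55 in control dams. None of the 8 lung epithelial, 6 endothelial, 5 B cell, 5 neutrophil or 4 heart muscle markers tested was called at the high dose. The heart muscle genes were detected in the lungs, with Myh6 at 2.61 in high-dose dams and 2.56 in control dams, and the thymus genes Rag1 and Rag2 were not well above background on any array.

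Of the 7 genes, 6 passed the filter on dim probes. Cxcl11 did not, because its Cy5 signal was not well above background on any of the 20 arrays, and it was not tested. RefSeq lists mouse Cxcl11 as a transcribed pseudogene, and C57BL/6 mice are known to carry a frameshift in it. Among 19914 genes tested with limma over all 20 arrays, a gene was called where its Benjamini-Hochberg adjusted p was under 0.05. At the high dose 1.04% of all genes were called, 0.507% higher and 0.532% lower, and 0 of the 6 members were. At the low and the medium dose 0.00502% of all genes were called, and again 0 of the 6 members. At an unadjusted p under 0.05, 2 of the 6 stood apart from control at the high dose (Cxcl10 and Ccl5), against 16.5% of all genes, 1 of 6 (Cxcr3) at the low dose, against 7.5%, and 0 of 6 at the medium dose, against 14.1%. A linear trend over the steps control, low, medium and high was called for 1 of the 6, Cxcl10, which was higher with dose, against 1.43% of all genes in either direction and 0.678% in that one. The median high-dose difference of the 6 was 0.101 on the log2 scale, beside -0.00905 over all genes. The 3 dose comparisons share the same control dams.

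Cxcl10, the interferon-inducible CXCR3 ligand also known as IP-10, was the member whose level followed the dose. Its log2 level was -1.421, -1.387, -0.377, -1.562 and -1.146 in control dams 4, 7, 14, 15 and 18. It was -0.977, -1.42, -1.256, -0.8776 and -0.9587 in low-dose dams 25, 27, 28, 31 and 36. In medium-dose dams 46 to 50 it was -0.7687, -0.6062, -0.8048, -0.8216 and -0.7423. In high-dose dams 60, 62, 63, 64 and 65 it was -0.4621, -0.2041, 0.6978, -0.7152 and -0.6779. Control dam 14 stood far above the other controls and overlapped the high-dose dams, and high-dose dam 63 was the highest of all 20. The other 4 controls were all below every medium- and high-dose dam.

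**Figure D1:**
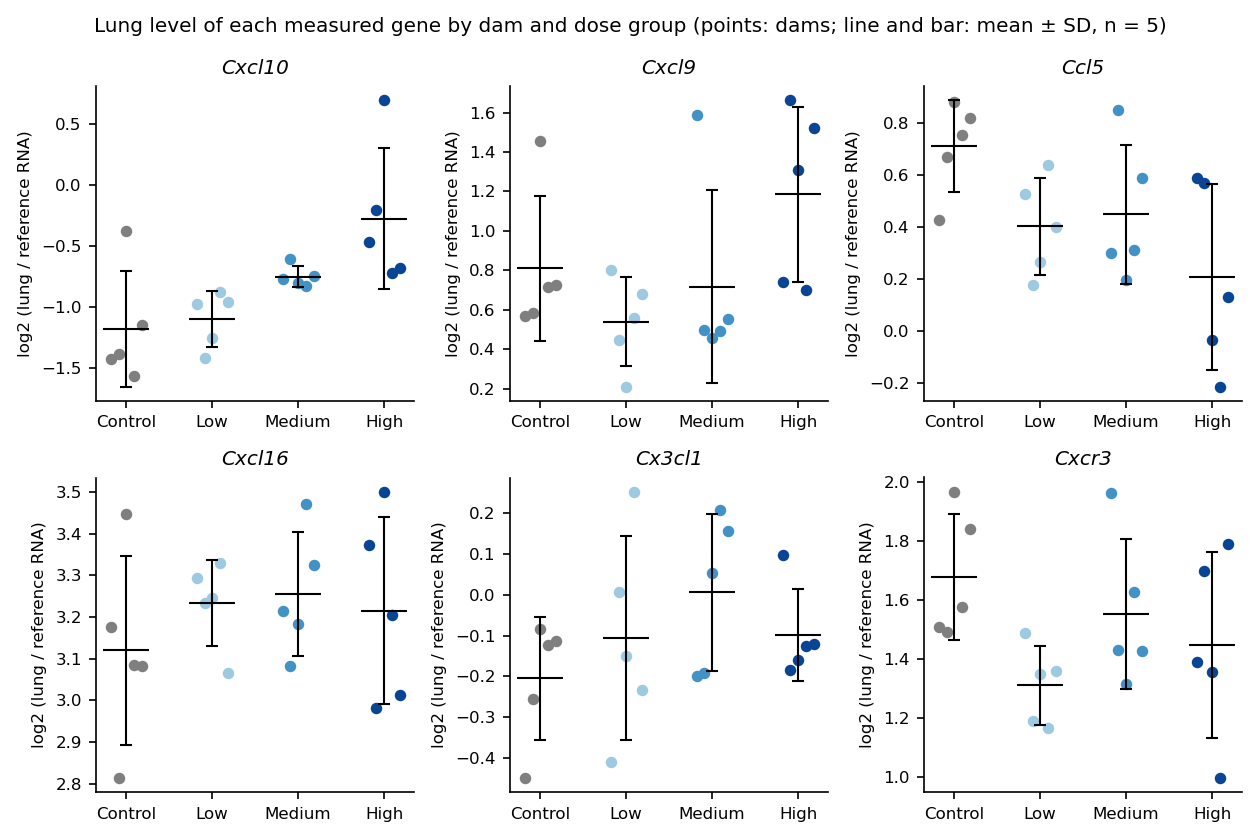
Log2 ratio of lung over reference RNA (vertical axis) of the 6 measured genes in the groups control, low, medium and high (horizontal axis), with 1 point a dam and the mean ± SD of 5 dams as a line and bar. Cxcl10 has its highest mean at the high dose (-0.27, against -1.18 in controls), while Ccl5 has its lowest there (0.21, against 0.71 in controls). The vertical scales differ between genes.

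The mean Cxcl10 level was -1.18 ± 0.47 in control dams, -1.10 ± 0.23 in low-dose dams, -0.75 ± 0.09 in medium-dose dams and -0.27 ± 0.58 in high-dose dams (SD, n = 5 each). The trend was 0.31 ± 0.07 (SE) per dose step (limma, adjusted p = 0.0345). The high-dose level was 1.87-fold the control level, a log2 difference of 0.91 ± 0.23 (SE, 95% interval 0.43 to 1.38), which missed the threshold (limma, adjusted p = 0.0568). The medium-dose difference was 0.43 ± 0.23 (limma, adjusted p = 0.399) and the low-dose difference 0.08 ± 0.23 (limma, adjusted p = 0.958). Within slides, the high-dose dam was above the control dam on 5 of 5 slides, by 0.4685 to 1.183. With slide as a random block the high-dose difference passed (limma, adjusted p = 0.0237). That was the lowest adjusted p of 17 other settings. The difference passed under 4 of them, and the limma adjusted p reached 0.435. The trend was lost when the ratios were rebuilt from scanner signals with normexp background correction and loess (0.28 per step, limma, adjusted p = 0.156). With the scanner software's own background-subtracted ratio 0 genes had a called trend, so Cxcl10 was lost there too. Under 16 other settings the Cxcl10 trend was called in 12, with limma adjusted p up to 0.496. It was also lost without any 1 of control dams 4, 7, 15 and 18 or high-dose dams 62 and 63 (limma, adjusted p of 0.0528 to 0.0877). The high-dose difference was 1.11 without control dam 14 (limma, adjusted p = 0.0146) and 0.66 without high-dose dam 63 (limma, adjusted p = 0.0989).

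**Figure D2:**
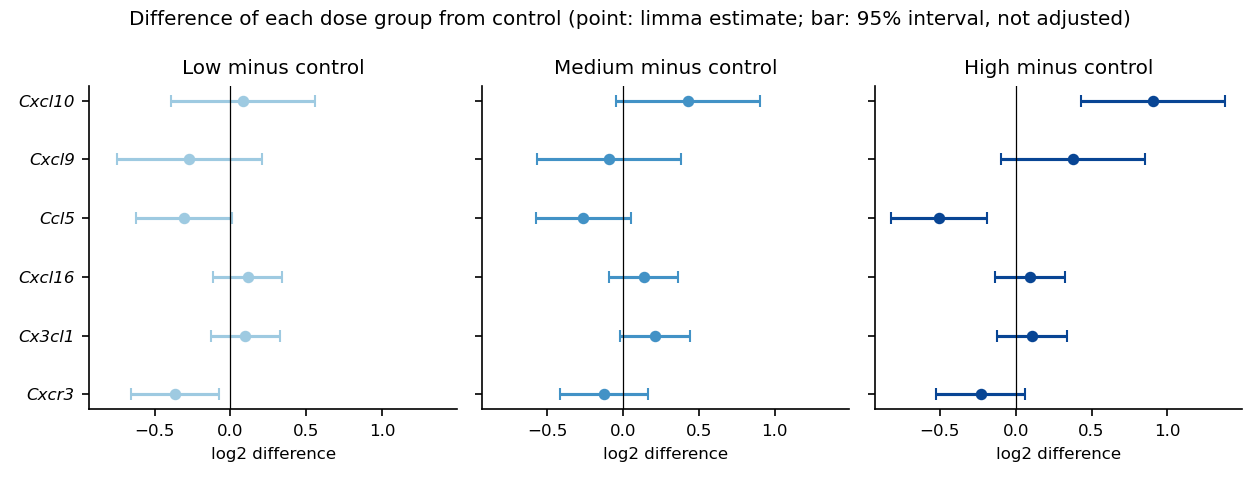
Log2 difference from control (horizontal axis) for the 6 measured genes (vertical axis) at the low, medium and high dose, as limma estimates with 95% intervals that are not adjusted for the number of genes. At the high dose the intervals of Cxcl10 (0.43 to 1.38) and Ccl5 (-0.82 to -0.19) leave out 0. At the low dose that of Cxcr3 (-0.66 to -0.07) does.

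The promoters of Cxcl10 and Cxcl9 are shown because both genes are textbook interferon gamma targets. Whether these sequences bear on the values of the 2 genes was not tested. Both are from RefSeq (GRCm38.p6), run 5′ to 3′ on the minus strand, and cover 250 bases before to 50 bases after the annotated start, chr5:92348840-92349139 for Cxcl10 and chr5:92328030-92328329 for Cxcl9. Capitals mark matches to GAAANNGAAA (an interferon-stimulated response element), GGGANNTTCC (a kB site) or TTCNNNGAA (a gamma-activated site), searched on both strands.
Cxcl10: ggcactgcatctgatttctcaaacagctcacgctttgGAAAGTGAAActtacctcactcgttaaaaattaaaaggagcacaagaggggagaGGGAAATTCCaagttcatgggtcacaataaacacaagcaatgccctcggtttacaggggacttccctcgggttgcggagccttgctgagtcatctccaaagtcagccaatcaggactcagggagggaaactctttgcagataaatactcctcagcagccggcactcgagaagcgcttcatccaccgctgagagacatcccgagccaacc
Cxcl9: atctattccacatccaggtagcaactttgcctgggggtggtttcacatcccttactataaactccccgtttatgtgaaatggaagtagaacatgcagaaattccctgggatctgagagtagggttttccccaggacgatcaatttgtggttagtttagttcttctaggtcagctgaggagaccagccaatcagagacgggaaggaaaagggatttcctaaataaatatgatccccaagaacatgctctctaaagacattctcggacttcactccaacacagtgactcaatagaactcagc
In the Cxcl10 window the first motif lies at -213 to -204 and the second at -159 to -150, with the annotated start as 0. These 2 matches do not overlap. No match to these letters was found in the windows of Cxcl9, Cx3cl1 and Cxcr3. Other forms of these elements were not searched for. A window without a match, or with 1 match, can therefore hold further interferon or kB elements. Of 32851 mouse promoters of this length, 3.44% hold the first motif, 1.47% the second and 8.3% the third. Promoters of Cxcl11, Cxcl16 and Ccl5 were not used here.

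Cxcl9, also known as MIG, whose induction depends mainly on interferon gamma, had a different pattern from Cxcl10. Its log2 level was 0.5683, 0.5853, 1.456, 0.718 and 0.7244 in control dams 4, 7, 14, 15 and 18, and 0.8003, 0.4486, 0.2108, 0.5587 and 0.6799 in low-dose dams 25, 27, 28, 31 and 36. In medium-dose dams 46 to 50 it was 1.589, 0.4952, 0.4561, 0.4916 and 0.5557, and in high-dose dams 60, 62, 63, 64 and 65 it was 0.7414, 1.662, 1.307, 0.702 and 1.52. The values fell into 15 dams between 0.2108 and 0.8003 and 5 dams between 1.307 and 1.662, with no dam in between. The upper 5 were high-dose dams 62, 63 and 65, medium-dose dam 46 and control dam 14, so all groups but the low dose had one.

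The mean Cxcl9 level was 0.81 ± 0.37 in control dams, 0.54 ± 0.23 in low-dose dams, 0.72 ± 0.49 in medium-dose dams and 1.19 ± 0.44 in high-dose dams (SD, n = 5 each). The high-dose difference was 0.38 ± 0.23 (SE, 95% interval -0.10 to 0.85, limma, adjusted p = 0.428), and on 3 of 5 slides the high-dose dam was the higher one. The Cy3 reference signal of this probe was not well above background on any array, so its ratio is set by the floor of the reference channel as well as by the lung. With the scanner software's own background-subtracted ratio the high-dose difference turned to -0.52 (limma, adjusted p = 0.782), and with the Cy5 channel alone it was 1.33 (limma, adjusted p = 0.935).

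Ccl5, also known as RANTES, had lower means in the dose groups than in controls, and none of these differences was called. Its log2 level was 0.4272, 0.6714, 0.8836, 0.7545 and 0.8208 in control dams 4, 7, 14, 15 and 18. The low-dose dams 25, 27, 28, 31 and 36 had 0.5294, 0.1789, 0.264, 0.6392 and 0.402, and the medium-dose dams 46 to 50 had 0.2994, 0.8529, 0.1977, 0.3137 and 0.5885. High-dose dams 60, 62, 63, 64 and 65 had 0.5877, 0.5702, -0.03321, -0.2143 and 0.13. High-dose dams 63, 64 and 65 lay below every other dam, whereas dams 60 and 62 lay within the range of the controls.

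The mean Ccl5 level was 0.71 ± 0.18 in control dams, 0.40 ± 0.19 in low-dose dams, 0.45 ± 0.27 in medium-dose dams and 0.21 ± 0.36 in high-dose dams (SD, n = 5 each). The high-dose difference was -0.50 ± 0.15 (SE, 95% interval -0.82 to -0.19, unadjusted p = 0.00345, limma, adjusted p = 0.105), and the trend was -0.15 ± 0.05 per step (limma, adjusted p = 0.121). The high-dose dam was below its control on 4 of 5 slides, with differences of -0.9688 to 0.1605. The direction was the same under all 17 other settings and all 20 omissions of a dam, and the difference was called under none of them, with adjusted p of 0.0566 or more. The array has a second probe for Ccl5, which gave -0.56 ± 0.16 at the high dose (limma over all probes, adjusted p = 0.0832). By their coordinates the probes read separate stretches of the transcript. These are chr11:83595699-83595758 for the brighter probe and chr11:83595850-83595905 for the other (mm7, minus strand). The first 30 bases of each probe are given 5′ to 3′.
Ccl5 brighter probe: tctcagctgctccgaggctctgcacagcaa
Ccl5 second probe: atcaactatttggagatgagctaggataga

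**Figure D3:**
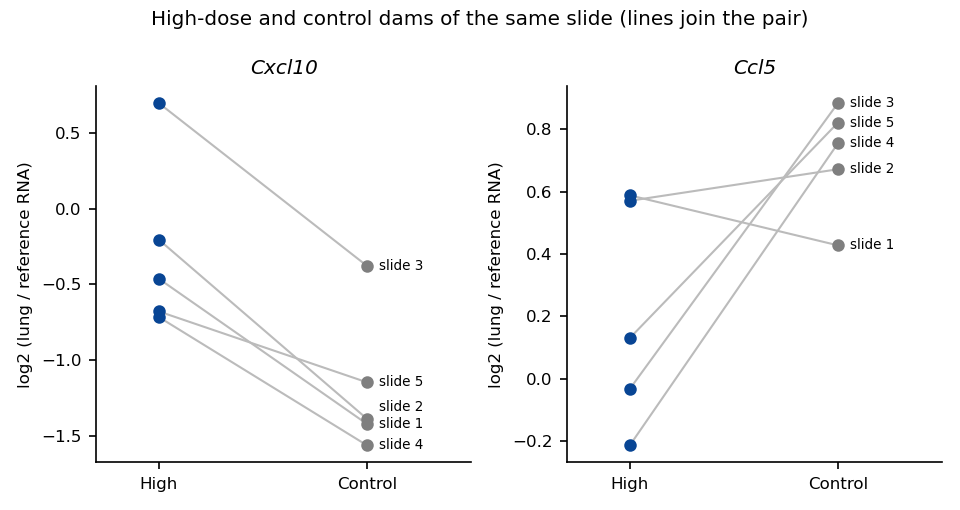
Log2 ratio of lung over reference RNA (vertical axis) of Cxcl10 (left) and Ccl5 (right) in the high-dose dam and the control dam of each of slides 1 to 5, with a line joining the pair. For Cxcl10 the high-dose dam is the higher one on 5 of 5 slides; for Ccl5 it is the lower one on 4 of 5.

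Cxcl16, a membrane-bound chemokine and scavenger receptor made by macrophages and other antigen-presenting cells, varied little between groups. It averaged 3.12 ± 0.23 in control dams, 3.23 ± 0.10 in low-dose dams, 3.25 ± 0.15 in medium-dose dams and 3.22 ± 0.22 in high-dose dams (SD, n = 5 each). The high-dose difference was 0.09 ± 0.11 (SE, 95% interval -0.13 to 0.32, limma, adjusted p = 0.724). A second probe, whose 60 bases span 2742 bases of the genome and so cross an exon junction, gave 0.07 ± 0.10 (limma over all probes, adjusted p = 0.782). Cx3cl1 (fractalkine), which holds CX3CR1-bearing monocytes and lymphocytes at the endothelium, averaged -0.21 ± 0.15 in control dams, -0.11 ± 0.25 in low-dose dams, 0.01 ± 0.19 in medium-dose dams and -0.10 ± 0.11 in high-dose dams (SD, n = 5 each). Its largest difference was 0.21 ± 0.11 at the medium dose (SE, 95% interval -0.02 to 0.44, limma, adjusted p = 0.393), and 0.11 ± 0.11 at the high dose (limma, adjusted p = 0.681). A dim second probe of Cx3cl1 gave -0.07 ± 0.06 at the high dose (limma over all probes, adjusted p = 0.586), so the direction of this gene at the high dose depends on the probe. For neither gene did any dose group separate from the controls.

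Cxcr3, the receptor of the 3 interferon-inducible ligands, was measured in every lung. Its log2 level was 1.511, 1.494, 1.967, 1.577 and 1.842 in control dams 4, 7, 14, 15 and 18, and 1.49, 1.191, 1.35, 1.169 and 1.359 in low-dose dams 25, 27, 28, 31 and 36. In medium-dose dams 46 to 50 it was 1.962, 1.43, 1.317, 1.629 and 1.427, and in high-dose dams 60, 62, 63, 64 and 65 it was 1.392, 1.698, 1.357, 0.9978 and 1.792. All low-dose dams were below all controls, by a narrow margin, as were 0.874% of all genes at that dose. The medium- and high-dose dams overlapped the controls.

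The low-dose Cxcr3 difference was -0.37 ± 0.14 (SE, 95% interval -0.66 to -0.07, unadjusted p = 0.0165, limma, adjusted p = 0.617), and the low-dose dam was below the control on 5 of 5 slides. The high-dose difference was -0.23 ± 0.14 (SE, 95% interval -0.52 to 0.06, limma, adjusted p = 0.427), and there was no called trend (-0.05 per step, limma, adjusted p = 0.702). Of the receptors of the other ligands, Cxcr6 differed by 0.11 at the high dose, Cx3cr1 by -0.22 and Ccr3 by -0.01, and these 3 genes were not called. Ccr1 was not well above background on any array. Of the 6 genes for decoy receptors and proteases that take up or cut these chemokines, 0 were called; Ackr1, a scavenger on venules, had the smallest p of the list, at 0.39 ± 0.12 (limma, adjusted p = 0.115).

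How the members varied together was examined over the 20 dams in 15 pairs. Of the 10 pairs without Cxcl9, none passed a permutation test of Pearson's r (two-sided, 100000 resamples, adjusted over the 15 pairs), and the smallest adjusted p was 0.164. Cxcl10 and Ccl5 had r = -0.231 and Spearman's rho = -0.0857. Of the 5 pairs with Cxcl9, 2 passed over the 20 dams, both positive: with Cxcr3 (permutation test, adjusted p = 0.0388) and with Cxcl10 (permutation test, adjusted p = 0.0496). By Spearman's rho they did not pass (permutation test, adjusted p = 0.107 and 0.157). Because Cxcl9 fell into 2 clusters, no r over both is given. Within the 15 lower dams r was 0.208 with Cxcr3 (rho 0.325, permutation p = 0.451) and 0.144 with Cxcl10 (rho 0.0321, permutation p = 0.614); these dams were chosen by their Cxcl9 level, which narrows its range, so the weak r there says nothing against the pairs that passed over all dams. In the 5 upper dams Cxcr3 ranged from 1.357 to 1.967 and Cxcl10 from -0.7687 to 0.6978.

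The genes most like each member were found by Pearson's r over the 20 arrays among 15618 other genes with a symbol, as a description. For Cxcl10 they were Ctsc (r = 0.93), the protease cathepsin C that activates granule serine proteases, Ccl12 (r = 0.91), a mouse monocyte chemokine of the CCR2 group, and 4930579C12Rik (r = 0.868). For Ccl5 they were Klrb1c (r = 0.896), the NK cell receptor NK1.1, Gzma (r = 0.831), granzyme A, and Klra8 (r = 0.822), the NK receptor Ly49H. For Cxcl9 they were Il4i1, Igkv4-72 and Fcgr2b. Their r runs over both clusters of Cxcl9 and is therefore not given. After the group means had been taken out, r was 0.88 for Ctsc and 0.873 for Ccl12 with Cxcl10, and 0.85 for Klrb1c and 0.763 for Gzma with Ccl5 as a description, since the genes were picked for their r on these same arrays. Without high-dose dam 63 and control dam 15, the farthest for Cxcl10, r was 0.861 for Ctsc, 0.783 for Ccl12 and 0.692 for 4930579C12Rik. The last gene was dim, with Cy5 well above background on 4 control, 2 low-dose, 2 medium-dose and 4 high-dose arrays.

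**Figure D4:**
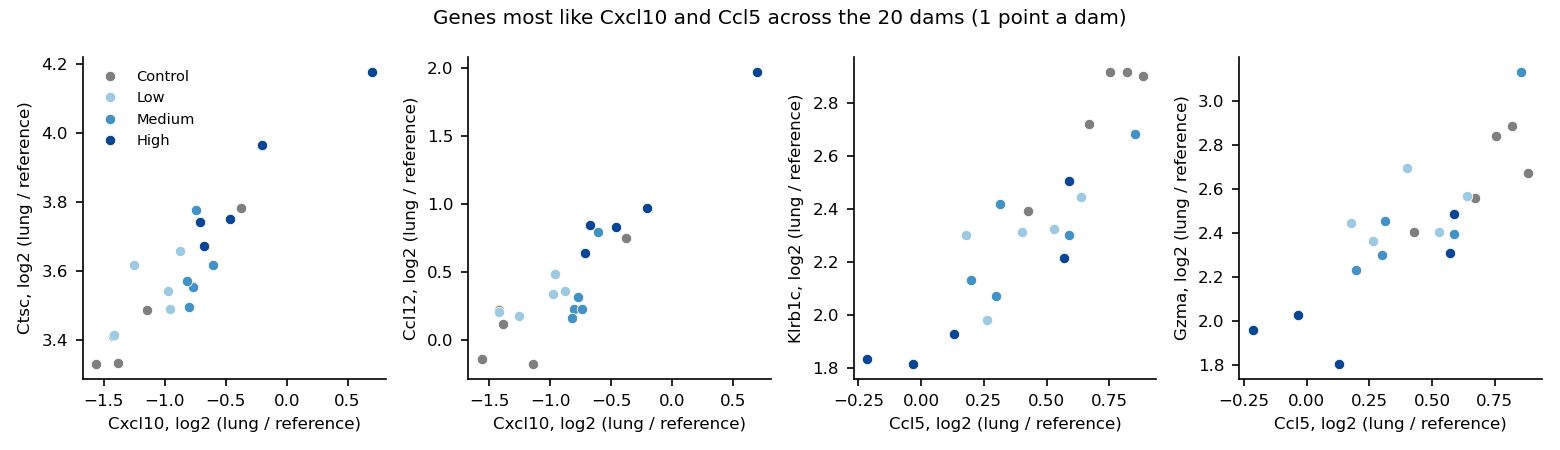
Log2 ratio of lung over reference RNA of Ctsc and Ccl12 against Cxcl10, and of Klrb1c and Gzma against Ccl5, with 1 point a dam, coloured by group (control, low, medium, high). The upper right point of the Cxcl10 panels is high-dose dam 63; high-dose dams 63, 64 and 65 lie at the lower left of the Ccl5 panels.

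Ccl5 lay beside a group of NK and cytotoxic genes that was lower at the high dose. Of 12 listed markers 11 were tested. At the high dose 4 were called lower, beside 0.532% of all genes, and none higher. There 10 of 11 had a negative difference, with a median of -0.456. At the low and the medium dose 0 were called, but 10 of 11 were negative as well, with medians of -0.179 and -0.247. Klrb1c averaged 2.06 ± 0.30 in high-dose dams and 2.77 ± 0.23 in control dams, a difference of -0.71 ± 0.14 (limma, adjusted p = 0.0189). Prf1 (perforin) averaged 1.35 ± 0.22 in high-dose dams and 2.04 ± 0.14 in control dams (-0.69 ± 0.13, limma, adjusted p = 0.0175), and Gzmb (granzyme B) 1.75 ± 0.09 in high-dose dams and 2.35 ± 0.15 in control dams (-0.61 ± 0.13, limma, adjusted p = 0.0259). Klrd1 (CD94) differed by -0.65 ± 0.13 (limma, adjusted p = 0.0228). The mean over the 11 genes was 1.54 to 1.86 in high-dose dams, below the 1.89 to 2.15 of control dams without overlap. Gene by gene, 3 of the 11 had all high-dose dams below the controls, beside 1.98% of all genes. In bulk lung tissue, fewer cells of a type and less RNA per cell cannot be told apart, and the part of these markers in the Ccl5 values was not tested. With normexp and loess none of the 4 calls held (limma, adjusted p = 0.353 or more). With the software's background-subtracted ratio the differences were much smaller and not called, at -0.11 for Klrb1c, -0.16 for Prf1 and -0.21 for Gzmb (limma, adjusted p = 0.973, 0.905 and 0.727), and Klrd1 turned to 0.21 (limma, adjusted p = 0.938). With the mean of its probes Klrb1c was -0.37 (limma, adjusted p = 0.0584). Leaving out 1 dam kept Prf1 called in 10 of 10 omissions, Klrb1c in 7, and Klrd1 and Gzmb in 5 each; the losses came without control dam 14, 15 or 18 or high-dose dam 62 or 63, with adjusted p up to 0.0798.

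Markers of T cells as a whole were balanced around 0 at the high dose only. Of 15 tested, 0 were called there, 8 differences were positive and 7 negative, and the median was 0.00442. At an unadjusted p under 0.05 Cd8b1, Cd2 and Cd27 were lower and Foxp3 higher, beside 16.5% of all genes in either direction. Foxp3 was dim, with Cy5 well above background on 4 arrays. At the low dose 13 differences were negative (median -0.118) and at the medium dose 11 (median -0.109), and 0 were called. The T cell receptor components Cd3d, Cd3e and Cd3g differed by -0.09, 0.03 and 0.00 at the high dose (limma, adjusted p = 0.716, 0.813 and 0.992). Cd8b1, of the cytotoxic T cell co-receptor, had the smallest p of the list, at 3.29 in high-dose dams and 3.82 in control dams (-0.53, limma, adjusted p = 0.106). The mean over the 15 genes was 0.418 to 0.844 in high-dose dams and 0.596 to 0.855 in control dams.

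**Figure D5:**
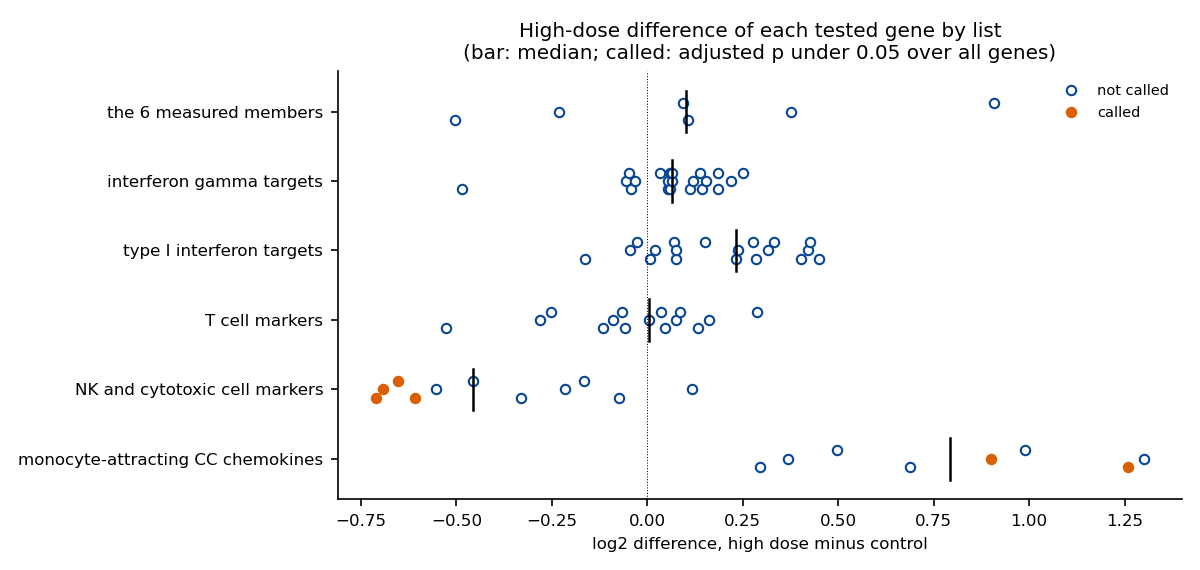
Log2 difference, high dose minus control (horizontal axis), of each tested gene in 6 lists (vertical axis), with the median of each list as a bar and called genes filled. The NK and cytotoxic markers have a median of -0.456 with 4 called genes, the T cell markers one of 0.00442 with none, and the monocyte-attracting chemokines one of 0.794 with 2.

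Interferon gamma itself, the main inducer of the CXCR3 ligands, was lower at the high dose, the opposite direction to the Cxcl10 trend. Ifng averaged 1.04 ± 0.14 in high-dose dams and 1.59 ± 0.14 in control dams (SD, n = 5 each), and the high-dose dams, at 0.8743 to 1.253, were all below the controls, at 1.434 to 1.791, as was the case for 1.98% of all genes. The difference was -0.55 ± 0.11 (SE, limma, adjusted p = 0.0207), and the trend was also called (-0.17 per step, limma, adjusted p = 0.0214). It was the 1 gene called among 19 tested for interferon gamma and its upstream signalling. The high-dose call was lost without either of control dams 15 and 18 or high-dose dams 62 and 63, with adjusted p up to 0.0599, and with normexp and loess (-0.47, limma, adjusted p = 0.373). With the software's ratio and with Cy5 alone 0 genes were called lower, so the Ifng call was lost there too. Under 17 other settings it was called in 13, with differences of -0.606 to -0.398.

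Genes that interferon gamma induces were not called at the high dose: 0 of 21, with 16 positive and 5 negative differences and a median of 0.0643. At the medium dose 0 of the 21 were called as well, but 20 differences were positive and 8 had an unadjusted p under 0.05, all higher, beside the 14.1% of all genes in either direction, and the median was 0.169. Ido1, a tryptophan-degrading enzyme, had the smallest p of the list at the high dose (-0.49, limma, adjusted p = 0.0898). It averaged 1.45 in high-dose dams and 1.93 in control dams. All high-dose dams were below the controls, as was the case for 1.98% of all genes. Of 19 genes induced by type I interferons 0 were called, but 8 had an unadjusted p under 0.05, all higher, beside 7.69% of all genes higher at that level, and the median was 0.233. The largest was Oas2, an antiviral oligoadenylate synthetase, at 0.18 in high-dose dams and -0.27 in control dams (0.45 ± 0.15, limma, adjusted p = 0.135).

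Among the other chemokine genes, some for monocytes and neutrophils were called higher at the high dose. Of 8 monocyte-attracting CC chemokines 2 were called higher, Ccl7 (1.26 ± 0.24, limma, adjusted p = 0.0152) and Ccl12 (0.90 ± 0.20, limma, adjusted p = 0.0378), and the median was 0.794. Ccl12 averaged 1.05 ± 0.53 in high-dose dams and 0.15 ± 0.37 in control dams, and its highest dam was high-dose dam 63, as for Cxcl10. Of 5 neutrophil-attracting CXC chemokines tested, Cxcl5 was called higher (3.01 ± 0.38, limma, adjusted p = 0.0014). Cxcl3 was also called (0.57 ± 0.12, limma, adjusted p = 0.0276), as was Ccl20 (limma, adjusted p = 0.0193) among 6 tested chemokines for lymphoid and dendritic cells. These last genes passed the filter on dim probes only through the high-dose group, where Cy5 was well above background on 5 arrays for Cxcl3 and 4 for Ccl20, against 2 and 0 control arrays, so their calls are no support for a change of their lists. With the software's ratio Cxcl3 differed by 2.37 and Ccl20 by 2.38, and neither was called (limma, adjusted p = 0.0918 and 0.0961). Cxcl5 and Ccl7 were called in 10 of 10 omissions of 1 dam, whereas Ccl12 and Cxcl3 were called in 4 each and Ccl20 in 7. Under 17 other settings Cxcl5 was called in 17. Ccl7 was called in 13 of them and Ccl12 in 11 (limma, adjusted p up to 0.116 and 0.15). Ccl12, Cxcl3 and Ccl20 lost their calls without any of several control dams (4, 7, 14, 15 or 18) or high-dose dam 62 or 63, with adjusted p of 0.051 to 0.112. Among 9 macrophage markers only Siglecf, a lectin of alveolar macrophages and eosinophils, was called, and it was lower (-0.93 ± 0.15, limma, adjusted p = 0.00392); with the software's ratio it differed by -0.47 (limma, adjusted p = 0.847).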

How the data were processed

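The authors deposited scanner tables, with spot intensity in both channels, and a value table of log2 ratios, Cy5 (lung) over Cy3 (reference). Set against the scanner signals, the deposited log2 values follow the ratio of median signals with no background subtracted (r of 0.9615 to 0.9925); how they were normalised is not stated in the labels or headers, and the column medians are -0.05 to -0.0315. The scanner tables also hold the software's background-subtracted log10 dye ratio, from Feature Extraction version 9.5.1.1 (18 arrays) or 10.1.1.1 (the other two), per the file headers; it was converted to log2 as an alternative. Spots of a probe were averaged. Probes with Cy5 well above background on at least 3 of 5 arrays of 1 group and a value on 16 arrays were kept, with the brightest probe per gene. limma 3.58.1 (lmFit, eBayes) was fitted over all 20 arrays in R 4.3.3, two-sided. The normexp rebuild (offset 50) is an alternative, since it compressed the ratios of low-dose dam 27 (slope 0.683 on the mean of the others). Simulated data with 200 changed genes were used to test the fit. At the high dose, 76% of 50 genes with a true log2 difference of 0.5 were called, and 14 of 201 calls were false. The noise was drawn for each gene on its own with no slide effect, and the changed genes were random. The 76% need therefore not hold for the members. Members and lists were chosen with earlier results of these data known. Genes outside the 7 are those called in a list, the up to 4 with the smallest p in it, the 3 most like a member, or defining markers of lung, T cells, heart and thymus; receptors of the ligands are named for their role. The number of arrays limits the precision.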

Additional observations from a re-analysis of the deposited data

Results flagged for a closer look

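In 24 groups of 5 dams (6 genes in 4 groups), 3 had a dam far from the others by Dixon's test (critical value 0.71); chance marks about 1 in 20 groups. Cxcl9 in control dam 14 was 1.456, with the next control at 0.7244. Cxcl9 in medium-dose dam 46 was 1.589, with the next medium-dose dam at 0.5557. Cx3cl1 in high-dose dam 60 was 0.09871, with the next high-dose dam at -0.1205. Without control dam 14 the medium-dose difference of Cxcl9 was 0.0685 in place of -0.0929, and neither was called.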

How the results depend on the processing

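Dams could not be paired by number, since no animal number is shared between groups; the control, low-dose and high-dose arrays of slides 1 to 5 were set against each other within slide, and slide as a block stands among the settings here. The count of genes called at the high dose, 207, was 10 with Cy5 alone, 9 with the software's ratio, 15 with normexp and loess, 59 with the latter without low-dose dam 27 (chosen after the data were seen), 21 with only the high-dose and control arrays, 341 with the mean of a gene's probes, 389 with no filter, 408 with every probe, and 617 and 694 with slide as a fixed or random block. Leaving out 1 dam gave 77 (without high-dose dam 62) to 242. The trend's count of 285 was 2, 0, 0 and 41 under the first 4 of these settings, 150 after scaling, 471, 506, 680 and 742 with no filter, every probe and slide as a fixed or random block, and 90 (without control dam 15) to 340 over the omissions. The 1 call at the low dose became 0 with Cy5 alone, the software's ratio or normexp, and stayed 1 over the omissions. The 1 call at the medium dose became 0 under those 3 settings, 3 after centring, 5 with loess alone, 3 with no filter and 2 with slide as a fixed block, and 1 to 9 over the omissions. Centring on the array median split the high-dose calls into 86 higher and 137 lower, against 101 and 106, and the trend's into 98 and 190, against 135 and 150.

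No called difference of a member turned its sign. The signs that turned were Cxcl16 at the low dose with normexp (-0.114) and at the medium dose with slide as a fixed block (-0.000487); Cxcl9 with the software's ratio at the high dose (-0.515) and in the trend (-0.139), and at the medium dose with Cy5 alone (0.138), slide as a fixed block (0.0174), without slide 6 (0.0363) and without control dam 14 (0.0685); Cxcr3 at the medium dose with Cy5 alone (0.00785); and Cxcl10 at the low dose without control dam 15 (-0.0149). Over the omissions of 1 dam these last values ran from -0.0149 to 0.281 for Cxcl10 and from -0.311 to 0.0685 for Cxcl9 at the medium dose. Among the other genes they were Cd3d with Cy5 alone (0.112) and the software's ratio (0.0823), Klrd1 with that ratio (0.21), and Cd3g after centring (-0.00714), after scaling (-0.0108), and without control dams 15 (-0.0171) and 18 (-0.0405) or high-dose dams 62 (-0.141) and 65 (-0.0268). The cause was not tested. Cxcl10 at the high dose was called under 4 of 17 settings and in 3 of 20 omissions, and its trend under 12 of 16 and in 14 of 20. Signal over background limits Cxcl9, whose reference spot is dim, and Cxcl11, which could not be tested.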
